A study of Mus musculus with 12 samples.

Results

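A set of 9 chemokine receptor genes was followed across thymic *i*NKT cells with normal and raised miR-155: *Cxcr3*, *Cxcr4*, *Cxcr5*, *Cxcr6*, *Ccr2*, *Ccr4*, *Ccr8*, *Ccr9* and *Ccr10*. They were chosen by symbol, and all 9 were found among the 48709 rows of the deposited count table and passed the filter on low counts in every comparison. RNA was sequenced from invariant NKT (*i*NKT) cells, T cells whose semi-invariant receptor sees lipids on CD1d, sorted from the thymus of 7-week-old C57BL/6J mice. There were 12 libraries, 3 in each of 4 groups: miR-155KI NK1.1+, WT NK1.1+, miR-155KI NK1.1- and WT NK1.1- cells. The miR-155KI mice were CD4Cre+ and carried the Rosa26 miR-155 knock-in allele on both chromosomes, while the WT mice were CD4Cre- littermates that also carried the knock-in allele. CD4Cre acts in all developing αβ T cells, so the surrounding thymocytes of miR-155KI mice carried the switched-on allele too. After removal of CD8+ thymocytes the cells were sorted by TCRβ, binding of the CD1d tetramer, CD44 and NK1.1. The sample labels name a SMART-Seq v4 kit and the study's methods a TruSeq kit. The methods also speak of pooled replicates where 3 separate libraries per group were deposited, and nothing ties a library to a named mouse, so p-values measure the spread between libraries, which may be partly technical.

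Chemokine receptors are seven-pass membrane receptors that couple to inhibitory G proteins and steer cells up gradients of secreted chemokines. In the thymus *Ccr9*, *Ccr4* and *Cxcr4* guide developing T cells between cortex and medulla. Among *i*NKT cells, CXCR3 and CXCR6 are known from the mature *i*NKT1 subset that carries NK1.1 and depends on T-bet, while CCR4 and CCR9 are known from less mature and *i*NKT2 cells. In the study's flow cytometry CD44-high NK1.1- cells also held immature *i*NKT1 cells, a smaller proportion in miR-155KI than in WT mice. Here NK1.1+ cells stand for the mature pool. NK1.1- cells stand for a mixture of *i*NKT2, *i*NKT17 and immature cells, immature *i*NKT1 cells among them. In such bulk samples fewer cells of a subset and less RNA per cell cannot be told apart.

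Total counts per library were 12819476 to 20518257, with a median of 18066119. Levels are given as CPM, counts scaled to library size with TMM factors. *Mir155hg*, the host transcript of miR-155, lay between 95.2 and 144 CPM in the 6 miR-155KI libraries and between 9.65 and 13.7 CPM in the 6 WT libraries, as the labels say. All 10 *i*NKT identity markers were detected in each group. Several libraries stood apart. WT replicates 2 and 3 of both pools had 135 to 237 CPM of *Xist*, the RNA of the inactive X chromosome, and 3.29 to 6.92 CPM of the Y-linked *Ddx3y*. The other 8 libraries, among them all 6 of miR-155KI, had 8.19 to 35.0 CPM of *Xist* and 52.5 to 76.6 CPM of *Ddx3y*. Genotype is therefore partly confounded with this split, and genotype values are also given against WT replicate 1 alone, a library then assumed to vary like the miR-155KI ones. The 12 macrophage and dendritic markers summed to 98.3 to 388 CPM in miR-155KI NK1.1+ cells and 20.6 to 23.8 CPM in WT NK1.1+ cells. The 8 double-positive thymocyte markers summed to 293 CPM in miR-155KI NK1.1+ replicate 1, against 45.1 and 94.7 CPM in the other miR-155KI NK1.1+ libraries and 32.5 to 44.7 CPM in WT NK1.1+ cells. In the NK1.1- pool WT replicate 1 had the highest sums of both lists. Its macrophage and dendritic sum was 79.2 CPM, against 18.3 to 55.3 CPM in the other NK1.1- libraries. Its double-positive sum was 91.8 CPM, against 40.8 to 80.2 CPM.

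Of the 9 genes, 6 lie on chromosome 9 in GRCm38, the build of the deposited counts. *Ccr9* (chr9:123678439-123784330), *Cxcr6* (chr9:123806475-123811760) and *Ccr2* (chr9:124101950-124113557) follow each other on the plus strand, with *Ccr8* (chr9:120092114-120094906, plus strand), *Ccr4* (chr9:114490316-114504916, minus strand) and *Cxcr5* (chr9:44511787-44561877, minus strand) at lower coordinates. *Cxcr3* is at chrX:101731535-101734269, *Cxcr4* at chr1:128588199-128592293 and *Ccr10* at chr11:101172997-101175443, all on the minus strand. Since miR-155 was the manipulated molecule, its mature sequence is shown with the seed, bases 2 to 8, in capitals, above the one match to it in an annotated 3′ UTR of these genes, in capitals with flanking bases. The microRNA is credited to RefSeq on GRCm38.p6, and the match was found in GENCODE M21 transcripts.
mmu-miR-155-5p (chr16:84714143-84714165, plus strand): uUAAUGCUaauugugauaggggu
*Ccr9* 3′ UTR match (chr9:123783324-123783331, plus strand): atgcagagAGCATTAAaggaaga
The match pairs with the seed and has A opposite the first base of the microRNA (AGCATTAA). Such a match stands in the annotated 3′ UTR of 719 of 21173 genes, or 3.4%. It stands in 2 of the 5 *Ccr9* transcripts with an annotated 3′ UTR, whose 3′ UTRs have 3966 and 3093 bases. The other 8 genes have at their longest between 24 bases (*Ccr8*) and 2701 bases (*Ccr2*). The shorter matches AGCATTA and GCATTAA were also found in *Ccr9* alone among the 9, and in 9.54% and 8.98% of all genes with a 3′ UTR.

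The receptor RNA of the pools was made up of different genes. Length was taken as all annotated exons of a gene merged, which gave 10260 bases for *Ccr9* and 6760 for *Ccr2*. The other genes had between 1175 bases (*Ccr8*) and 3332 bases (*Cxcr5*). Shares and ranks per kb depend on these lengths, and which transcripts the cells used was not examined. Per kb of exon, *Cxcr3*, *Cxcr6* and *Ccr8* together took 93.6% ± 3.2 of the summed level of the 9 genes in miR-155KI NK1.1+ cells and 94.1% ± 1.6 in the WT NK1.1+ pool (SD, n = 3 each). They took 58.6% ± 4.9 in miR-155KI NK1.1- cells and 67.7% ± 4.0 in the WT NK1.1- pool (SD, n = 3 each). *Ccr4*, *Ccr9* and *Ccr10* took 4.21% ± 2.55 and 2.69% ± 0.63 in the NK1.1+ pools of miR-155KI and WT mice, and 34.4% ± 4.3 and 26.0% ± 3.9 in the NK1.1- pools of miR-155KI and WT mice. By mean CPM per kb the order in WT NK1.1+ cells was *Ccr8* (285), *Cxcr3* (256) and *Cxcr6* (247), and their ranges over libraries overlapped. In WT NK1.1- cells the leading levels were *Cxcr6* (175 CPM per kb), *Ccr8* (114) and *Cxcr3* (100.5). In miR-155KI NK1.1- cells *Cxcr6* (157 CPM per kb) was followed by *Ccr10* (71.7), *Ccr8* (71.0), *Ccr4* (58.4) and then *Cxcr3* (44.2). *Ccr9* had 28.8 CPM per kb in that group, though its mean of 296 CPM lay near the 303 CPM of *Cxcr6*. *Cxcr5* stood last in 3 groups, with 0.871 CPM per kb in miR-155KI NK1.1+, 0.784 in WT NK1.1+ and 3.09 in WT NK1.1- cells. In miR-155KI NK1.1- cells it reached 12.0 CPM per kb and *Cxcr4* was last, with 7.18.

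**Figure D1:**
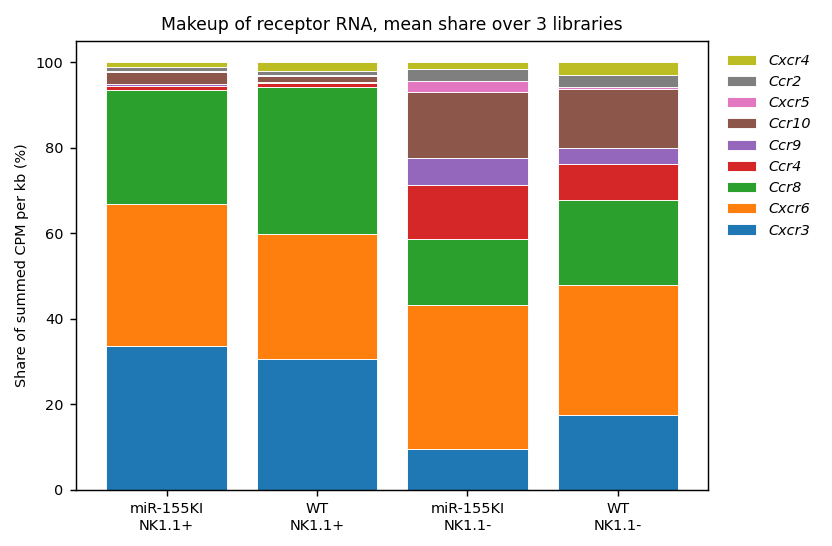
Stacked bars give the mean share (%) of each receptor in the summed CPM per kb of exon of the 9 receptors, over 3 libraries a group. *Cxcr3*, *Cxcr6* and *Ccr8* fill 93.6% and 94.1% of the miR-155KI and WT NK1.1+ bars, and the *Cxcr3* segment is 9.49% in miR-155KI NK1.1- and 17.5% in WT NK1.1- cells.

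The first question was what raised miR-155 did to these genes in NK1.1- cells. *Cxcr5* rose, and *Cxcr3* and *Ccr8* fell. This made 3 of 9 genes called at an adjusted p under 0.05 by edgeR's quasi-likelihood test, beside 3.44% of the 13304 genes tested, with 1 higher (1.93% of all genes) and 2 lower (1.50% of all genes). The groups did not overlap for *Cxcr3*, *Cxcr4*, *Cxcr5* and *Ccr8*, beside 23.1% of all genes tested. The median log2 fold change of the 9 was -0.18, and that of all genes -0.0010.

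*Cxcr3* encodes the receptor for the interferon-induced chemokines CXCL9 and CXCL10. It had 58.5, 77.1 and 93.7 CPM in miR-155KI NK1.1- libraries, against 187, 159 and 176 CPM in WT NK1.1- cells. Every miR-155KI library lay below every WT library, and the fitted level was 2.31-fold lower (log2 fold change -1.21 ± 0.15 SE, edgeR adjusted p = 0.000743). Set against WT replicate 1 alone, the log2 fold change was -1.29 and still called (edgeR adjusted p = 0.0307), while a fit of all 12 libraries put it just above the threshold (-1.19, edgeR adjusted p = 0.0535). The 6 *i*NKT1 markers moved with it, summing to 620 to 764 CPM in miR-155KI NK1.1- cells and 1019 to 1235 CPM in WT NK1.1- cells, with none at 0. Among them *Tbx21*, which encodes T-bet, had a log2 fold change of -1.23 ± 0.15 SE (edgeR adjusted p = 0.000776). Their part in the *Cxcr3* result was not tested.

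*Cxcr5* encodes the receptor for CXCL13, known for drawing B cells and follicular helper T cells into follicles. It had 50.3, 43.6 and 26.5 CPM in miR-155KI NK1.1- libraries, against 13.2, 9.67 and 7.98 CPM in WT NK1.1- cells. The lowest miR-155KI library was above the highest WT library, and the fitted rise was 3.88-fold (log2 fold change 1.95 ± 0.26 SE, edgeR adjusted p = 0.00252). The call was lost against WT replicate 1 alone (log2 fold change 1.61, edgeR adjusted p = 0.137) and with the ratio of Y-linked to *Xist* RNA as a covariate (1.50, edgeR adjusted p = 0.0690). The sums of 3 marker lists moved with it and did not overlap between the genotypes. The 6 *i*NKT2 markers summed to 3616 to 3852 CPM in miR-155KI NK1.1- cells and 2689 to 2824 CPM in WT NK1.1- cells. Of these, *Il4*, *Il17rb*, *Icos* and *Izumo1r* were higher in every miR-155KI library, and *Zbtb16* and *Gata3* overlapped. *Zbtb16* had 438 to 639 CPM in miR-155KI and 427 to 492 CPM in WT, and *Gata3* 549 to 636 CPM in miR-155KI and 546 to 656 CPM in WT. The 6 markers of immature cells summed to 876 to 1071 CPM in miR-155KI and 686 to 769 CPM in WT. The 6 gamma delta T cell markers summed to 710 to 1016 CPM in miR-155KI NK1.1- cells and 392 to 619 CPM in WT NK1.1- cells. The gamma chain constant genes *Tcrg-C1*, *Tcrg-C2* and *Tcrg-C4* gave most of these sums. Among the 6 markers *Sox13*, a transcription factor gene of gamma delta T cells, had 30.7 to 94.2 CPM in miR-155KI and 14.0 to 25.0 CPM in WT. *Trdc*, the constant gene of the delta chain, had 0.589 to 1.29 CPM in miR-155KI and 0.558 to 1.95 CPM in WT. The 8 B cell markers, of which *Blk* gave most of the sum, came to 21.4 to 59.9 CPM in miR-155KI NK1.1- cells and 56.1 to 78.7 CPM in WT NK1.1- cells. The part of any of these cells in the *Cxcr5* result was not tested.

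*Ccr8* encodes the receptor for CCL1, known from Th2 and regulatory T cells. It had 75.3, 85.7 and 89.2 CPM in miR-155KI NK1.1- libraries, against 114, 127 and 160.3 CPM in WT NK1.1- cells. The groups did not overlap, with a 1.62-fold lower fitted level (log2 fold change -0.70 ± 0.13 SE, edgeR adjusted p = 0.0120). That call was lost without miR-155KI NK1.1- replicate 1 (log2 fold change -0.64, edgeR adjusted p = 0.0879), with WT replicate 1 as the only control (-0.45, edgeR adjusted p = 0.193), with the sex-linked covariate (-0.44, edgeR adjusted p = 0.306) and in a fit of all 12 libraries (-0.68, edgeR adjusted p = 0.264).

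**Figure D2:**
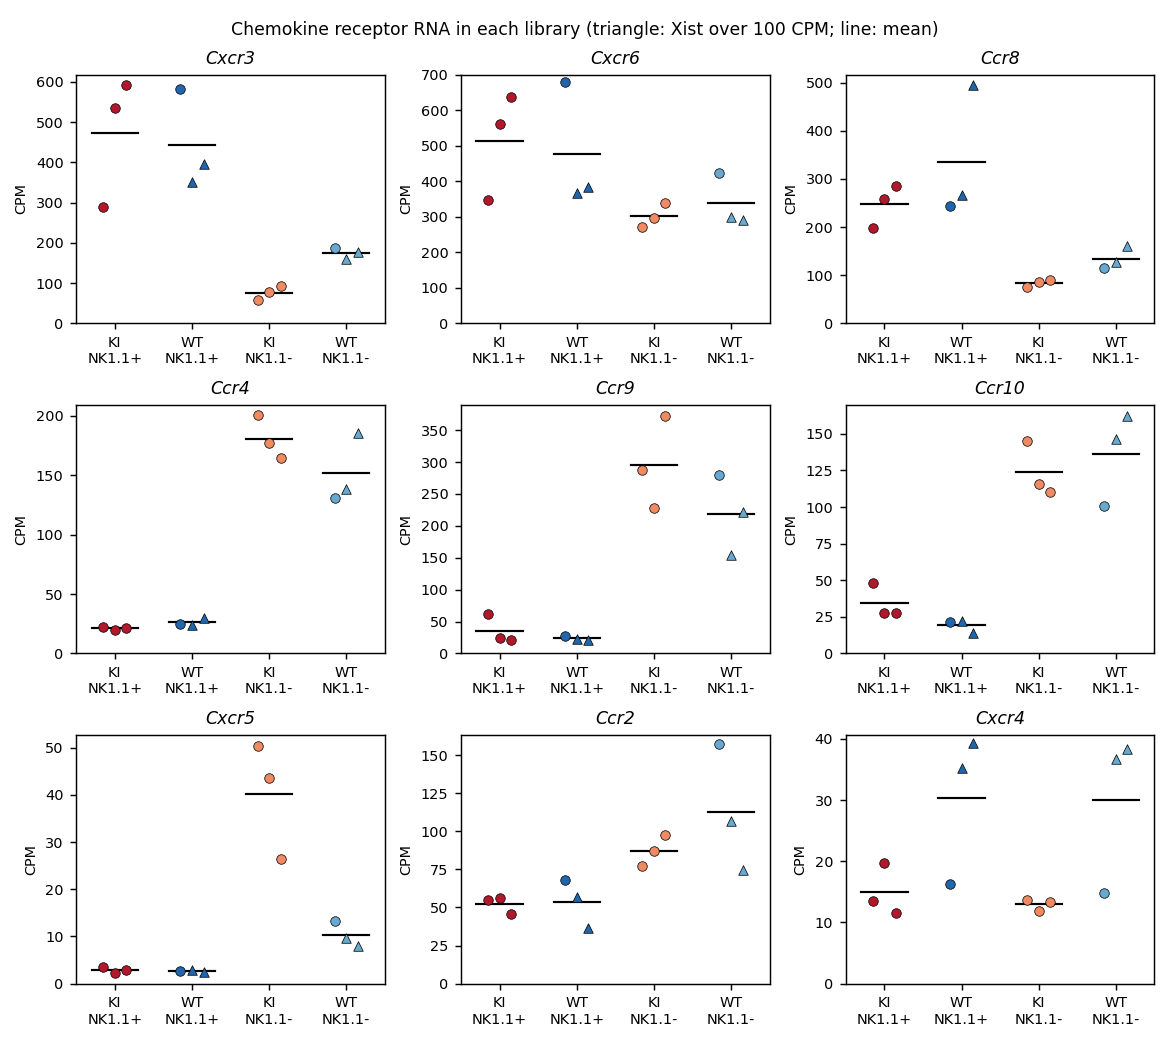
Each panel shows one receptor's CPM (linear axis from 0) in the 12 libraries. The groups run from miR-155KI (KI) NK1.1+ to WT NK1.1- cells, with triangles for libraries over 100 CPM of *Xist* and lines at the mean of 3. *Cxcr5* at 26.5 to 50.3 CPM in miR-155KI NK1.1- cells stands above every other group, and *Cxcr4* is over 35 CPM only in the triangles.

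The other 6 genes were not called in NK1.1- cells. *Cxcr6*, the receptor for CXCL16, had a log2 fold change of -0.18 ± 0.14 SE, and *Ccr2*, the receptor for CCL2, one of -0.39 ± 0.24 SE. *Ccr2* had 77.0, 86.9 and 97.3 CPM in miR-155KI NK1.1- libraries, against 157, 107 and 74.5 CPM in WT NK1.1- cells. Its highest value was that of WT replicate 1, and with that library as the only control the log2 fold change of *Ccr2* was -0.85. The same library had the highest macrophage and dendritic marker sum of the NK1.1- pool (79.2 CPM). The part of those transcripts in its *Ccr2* value was not tested. *Ccr4*, the receptor for CCL17 and CCL22, had a log2 fold change of 0.23 ± 0.14 SE. *Ccr10*, the receptor for CCL27 and CCL28, had one of -0.16 ± 0.18 SE. *Ccr9*, the receptor for CCL25 and the gene with the miR-155 seed match printed above, had 288, 228 and 372 CPM in miR-155KI NK1.1- libraries, against 279, 155 and 221 CPM in WT NK1.1- cells. These groups overlapped, and its log2 fold change was 0.42 ± 0.24 SE (edgeR adjusted p = 0.404).

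*Cxcr4*, which encodes the receptor for CXCL12, was high in the WT libraries with high *Xist* and in no other. It had 13.5, 19.8 and 11.5 CPM in miR-155KI NK1.1+ cells and 16.3, 35.3 and 39.2 CPM in WT NK1.1+ cells. In the NK1.1- pool it had 13.7, 11.9 and 13.4 CPM in miR-155KI and 14.9, 36.7 and 38.3 CPM in WT cells. The 4 libraries over 35 CPM were WT replicates 2 and 3 of both pools, which are the 4 with high *Xist*, and the other 8 lay between 11.5 and 19.8 CPM. With all WT libraries the log2 fold change was -1.23 ± 0.33 SE (edgeR adjusted p = 0.0843) for NK1.1- cells and -1.04 ± 0.36 SE (edgeR adjusted p = 0.310) for NK1.1+ cells. Set against WT replicate 1 alone, the NK1.1- value was -0.19 (edgeR adjusted p = 0.857) and the NK1.1+ value -0.13. DESeq2 called *Cxcr4* in NK1.1- cells (adjusted p = 0.000672), as did edgeR without WT NK1.1- replicate 1 (log2 fold change -1.55, adjusted p = 0.000154). The high *Cxcr4* values came from 4 WT libraries that all share the *Xist* pattern. WT replicate 1, with low *Xist*, had 14.9 CPM in NK1.1- and 16.3 CPM in NK1.1+ cells, within the 11.5 to 19.8 CPM of the miR-155KI libraries. No miR-155KI library had high *Xist*, so a genotype difference among high-*Xist* libraries could not be tested.

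**Figure D3:**
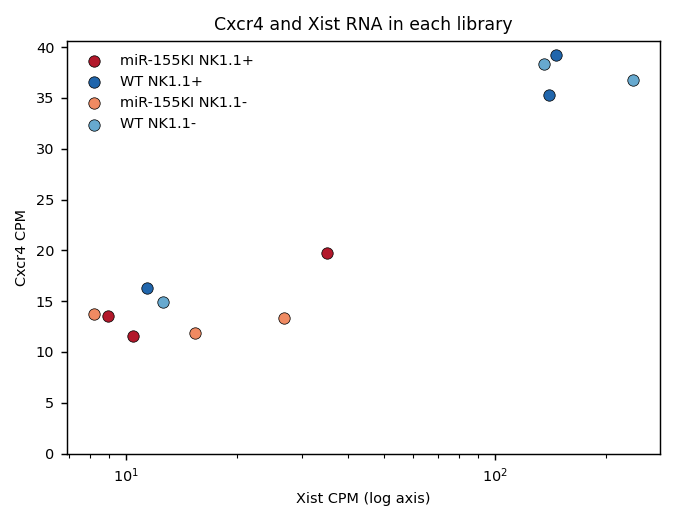
*Cxcr4* CPM (vertical, linear from 0) is plotted against *Xist* CPM (horizontal, log axis) for the 12 libraries, colored by group. The 4 WT libraries at 135 to 237 CPM of *Xist* hold 35.3 to 39.2 CPM of *Cxcr4*, and the other 8 libraries lie at 11.5 to 19.8 CPM.

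**Figure D4:**
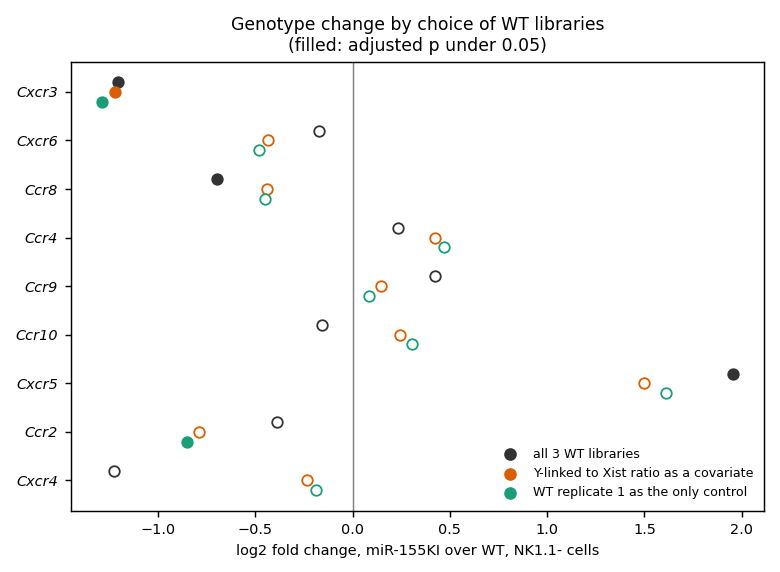
Points give the log2 fold change of each receptor, miR-155KI over WT in NK1.1- cells, with all 3 WT libraries, with the ratio of Y-linked to *Xist* RNA as a covariate, or with WT replicate 1 alone, filled where the adjusted p was under 0.05. *Cxcr3* lies at -1.21, -1.22 and -1.29, *Cxcr5* lies at 1.95, 1.50 and 1.61, and *Cxcr4* moves between -1.23 and -0.19.

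In NK1.1+ cells the same comparison called 0 of the 9 genes by edgeR, beside 0.0231% of 12991 genes tested. At an unadjusted p under 0.05 there were 2, *Cxcr4* and *Ccr10*, beside 11.8% of all genes. DESeq2, limma-voom and limma on the log2 of the deposited CPM each called 0 of the 9 as well, beside 2.23%, 0.00770% and 0.0308% of all genes. The groups did not overlap for *Ccr4* and *Ccr10*, beside 16.8% of all genes. *Ccr10* had 48.0, 27.3 and 27.6 CPM in miR-155KI NK1.1+ libraries, against 21.7, 21.9 and 14.0 CPM in WT NK1.1+ cells. Its log2 fold change was 0.82 ± 0.30 SE (edgeR adjusted p = 0.324). *Ccr4* had 22.0, 20.0 and 21.3 CPM in miR-155KI NK1.1+ libraries, against 24.7, 24.3 and 30.0 CPM in WT NK1.1+ cells, a log2 fold change of -0.34 ± 0.23 SE.

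*Cxcr3* and *Cxcr6* spread widely within both NK1.1+ groups. *Cxcr3* had 289, 536 and 592 CPM in miR-155KI NK1.1+ libraries, against 582, 351 and 395 CPM in WT NK1.1+ cells. *Cxcr6* had 346, 561 and 638 CPM in miR-155KI NK1.1+ libraries, against 681, 366 and 383 CPM in WT NK1.1+ cells. The lowest library of the miR-155KI group for both genes was replicate 1, the one with double-positive thymocyte transcripts. Replicate 1 was the highest library for both in WT. *Ccr9* had 61.4, 24.9 and 21.1 CPM in miR-155KI NK1.1+ libraries, against 27.2, 23.0 and 20.4 CPM in WT NK1.1+ cells. The value of 61.4 CPM belonged to the same miR-155KI replicate 1, and without it the log2 fold change of *Ccr9* was -0.025 in place of 0.59 ± 0.37 SE. Double-positive thymocytes are known to carry CCR9, and the part of their transcripts in this value was not tested. *Ccr2* had 55.0, 55.9 and 45.9 CPM in miR-155KI NK1.1+ libraries, against 68.0, 56.6 and 36.6 CPM in WT NK1.1+ cells, a log2 fold change of -0.053 ± 0.23 SE. Macrophages are known to carry CCR2, and the part of the macrophage transcripts of the miR-155KI libraries in these values was not tested.

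An interaction term, fitted on the 12 libraries together, asked whether the change by genotype was unequal in the pools. None of the 9 genes was called by edgeR, beside 0.0278% of 14401 genes, and 4 had an unadjusted p under 0.05, beside 8.10% of all genes. For *Cxcr5* the log2 fold change by genotype in NK1.1+ cells minus that in NK1.1- cells was -1.82 ± 0.43 SE (edgeR adjusted p = 0.197). For *Cxcr3* the difference was 1.28 ± 0.36 SE (edgeR adjusted p = 0.329) and for *Ccr10* 0.98 ± 0.34 SE (edgeR adjusted p = 0.436). *Ccr4* had a difference of -0.57 ± 0.21 SE (edgeR adjusted p = 0.477). DESeq2 called 2 genes, *Cxcr3* (adjusted p = 0.0402) and *Cxcr5* (adjusted p = 0.0101), beside 0.907% of all genes. Limma-voom and limma on the log2 of the deposited CPM called 0 of the 9, beside 0% and 0.0208% of all genes. Without miR-155KI NK1.1+ replicate 1, edgeR called *Cxcr3* (1.57, adjusted p = 0.0313).

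The next comparison set the mature NK1.1+ pool against the NK1.1- pool within each genotype, which share no library. In miR-155KI cells 8 of 9 genes differed by edgeR, beside 14.1% of 12942 genes, with 3 higher in NK1.1+ cells (7.92% of all genes) and 5 lower (6.15%). In WT cells 6 of 9 differed, beside 20.8% of 13555 genes, with 2 higher (9.89% of all genes) and 4 lower (10.9%). The groups did not overlap for 8 genes in miR-155KI and 7 in WT cells, beside 34.5% and 39.0% of all genes. Since NK1.1 was the sort gate, these values describe the sorted pools and their mixtures of subsets.

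*Cxcr3* and *Ccr8* were higher in NK1.1+ cells of both genotypes by edgeR, and *Cxcr6* was called higher in those of miR-155KI mice. *Cxcr3* was 6.19-fold higher in miR-155KI cells (log2 fold change 2.63 ± 0.27 SE, edgeR adjusted p = 0.000212) and 2.49-fold higher in WT cells (1.32 ± 0.18 SE, edgeR adjusted p = 0.000420). In the libraries this was 289 to 592 CPM in NK1.1+ against 58.5 to 93.7 CPM in NK1.1- cells of miR-155KI mice, and 351 to 582 CPM in NK1.1+ against 159 to 187 CPM in NK1.1- cells of WT mice. *Ccr8* had 198, 258 and 286 CPM in miR-155KI NK1.1+ cells and 244, 266 and 496 CPM in WT NK1.1+ cells. Against the NK1.1- pool it was 2.97-fold higher in miR-155KI (log2 fold change 1.57 ± 0.15 SE, edgeR adjusted p = 0.000159) and 2.45-fold higher in WT cells (1.29 ± 0.28 SE, edgeR adjusted p = 0.0140). *Cxcr6* was abundant in both pools. Its NK1.1- libraries lay between 272 and 340 CPM in miR-155KI and between 290.3 and 424 CPM in WT mice. The log2 fold change was 0.77 ± 0.20 SE in miR-155KI cells (edgeR adjusted p = 0.0312) and 0.47 ± 0.26 SE in WT cells (edgeR adjusted p = 0.268). In miR-155KI cells *Cxcr6* was called under 8 of 15 other settings. The call was kept with miR-155KI NK1.1+ replicate 1 left out and lost with any other library left out (edgeR adjusted p = 0.0775 to 0.135). In WT cells it was called under 3 of 15 other settings, with the replicate block (0.43, edgeR adjusted p = 0.0134), with the sex-linked covariate (0.39, edgeR adjusted p = 0.0172) and without a filter on low counts (0.48, edgeR adjusted p = 0.0262). The interaction for *Cxcr6* was 0.27 ± 0.37 SE (edgeR adjusted p = 0.918), so a difference between the genotypes was not shown.

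*Ccr9*, *Ccr4*, *Ccr10* and *Cxcr5* were lower in NK1.1+ cells of both genotypes by edgeR, and *Ccr2* in those of miR-155KI mice. *Ccr9* was 8.27-fold lower in miR-155KI cells (log2 fold change -3.05 ± 0.39 SE, edgeR adjusted p = 0.000956) and 9.47-fold lower in WT cells (-3.24 ± 0.22 SE, edgeR adjusted p = 6.73e-06). Without miR-155KI NK1.1+ replicate 1 the miR-155KI value was -3.69, and without a filter on low counts it was -3.07 and not called (edgeR adjusted p = 0.0546). *Ccr4* had 200.4, 177 and 165 CPM in miR-155KI NK1.1- cells and 131, 139 and 186 CPM in WT NK1.1- cells. In NK1.1+ cells it was 8.58-fold lower in miR-155KI (log2 fold change -3.10 ± 0.14 SE, edgeR adjusted p = 8.47e-06) and 5.89-fold lower in WT mice (-2.56 ± 0.17 SE, edgeR adjusted p = 5.46e-06). *Ccr10* had 145, 116 and 111 CPM in miR-155KI NK1.1- cells and 100.4, 146 and 162 CPM in WT NK1.1- cells. It was 3.62-fold lower in the NK1.1+ pool of miR-155KI (log2 fold change -1.85 ± 0.23 SE, edgeR adjusted p = 0.000753) and 7.26-fold lower in that of WT mice (-2.86 ± 0.23 SE, edgeR adjusted p = 2.41e-05). The *i*NKT2 markers were also higher in the NK1.1- pool, with sums of 1736 to 1947 CPM in NK1.1+ against 3616 to 3852 CPM in NK1.1- cells of miR-155KI mice, and 1552 to 1642 CPM in NK1.1+ against 2689 to 2824 CPM in NK1.1- cells of WT mice. Their part in these results was not tested.

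*Cxcr5* had 3.58, 2.22 and 2.90 CPM in miR-155KI NK1.1+ cells and 2.58, 2.80 and 2.45 CPM in WT NK1.1+ cells, from 38 to 54 counts a library. It was 13.9-fold lower than in the NK1.1- pool of miR-155KI mice (log2 fold change -3.79 ± 0.34 SE, edgeR adjusted p = 9.80e-05) and 4.01-fold lower in WT mice (-2.00 ± 0.29 SE, edgeR adjusted p = 0.000622). *Ccr2* was lower in NK1.1+ cells of miR-155KI mice (log2 fold change -0.74 ± 0.15 SE, edgeR adjusted p = 0.0101), a call lost without miR-155KI NK1.1- replicate 3 (edgeR adjusted p = 0.0709) and in a fit of all 12 libraries (edgeR adjusted p = 0.0506). In WT mice its log2 fold change was -1.10 ± 0.32 SE, just above the threshold (edgeR adjusted p = 0.0525), and it was called under 10 of 15 other settings. *Cxcr4* did not separate the pools, with log2 fold changes of 0.20 ± 0.30 SE in miR-155KI and -0.024 ± 0.46 SE in WT cells.

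**Figure D5:**
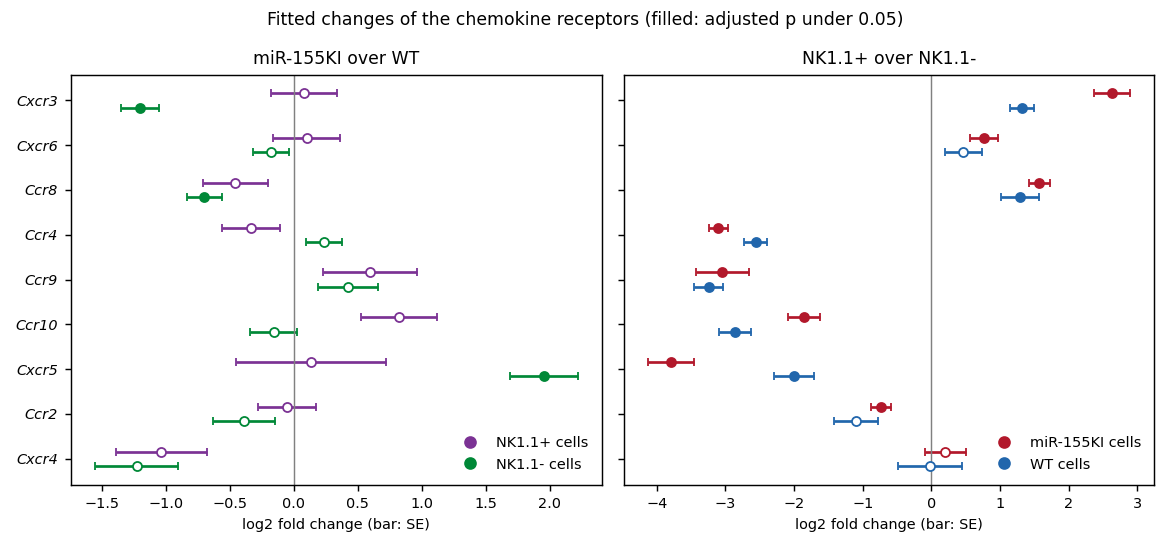
Points are log2 fold changes with SE bars from edgeR, miR-155KI over WT on the left and NK1.1+ over NK1.1- on the right, filled where the adjusted p was under 0.05 (3 libraries a group). The genotype panel has filled points for *Cxcr3*, *Ccr8* and *Cxcr5* in NK1.1- cells alone, and the pool panel runs between -3.79 and 2.63.

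The rest of the chemokine pathway was read from 3 gene lists. Of 15 other chemokine receptors, 6 were abundant enough to test in each comparison. In NK1.1- cells 1 was lower in miR-155KI than in WT mice, beside 1.50% of all genes. This was *Ccr6*, a receptor of *i*NKT17 cells (log2 fold change -2.89 ± 0.60 SE, edgeR adjusted p = 0.0339), where the 6 *i*NKT17 markers summed to 13.1 to 19.1 CPM in miR-155KI and 94.7 to 136 CPM in WT cells. Between the pools *Ccrl2* was higher in NK1.1+ cells of both genotypes, and *Ccr7*, the receptor for CCL19 and CCL21, was lower in both. *Ccr7* had log2 fold changes of -2.32 ± 0.55 SE in miR-155KI and -3.15 ± 0.19 SE in WT cells. *Cx3cr1* was also called higher in the NK1.1+ pool of both genotypes. The values were 2.24 ± 0.66 SE in miR-155KI (edgeR adjusted p = 0.0495) and 1.03 ± 0.25 SE in WT cells (edgeR adjusted p = 0.0144). *Cx3cr1* had 7.19 to 54.1 CPM in the miR-155KI NK1.1+ libraries and 10.7 to 12.4 CPM in the WT NK1.1+ libraries. The part of the macrophage transcripts of the miR-155KI NK1.1+ libraries in these values was not tested. The medians of the list were -0.80 for genotype in the NK1.1- pool and 0.32 in the NK1.1+ pool, beside -0.0010 and 0.022 for all genes. No other receptor was called for genotype in NK1.1+ cells by edgeR, with 1 of 6 at an unadjusted p under 0.05, beside 11.8% of all genes.

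Of 16 genes for ligands of these receptors, 5 could be tested within a pool. *Cxcl10*, which encodes a ligand of CXCR3, was lower in miR-155KI NK1.1- cells, at 6.60 ± 1.84 CPM, and averaged 15.5 ± 4.9 CPM in the WT ones (SD over 3 libraries; log2 fold change -1.27 ± 0.28 SE, edgeR adjusted p = 0.0286). In miR-155KI mice it was higher in the NK1.1+ pool (1.87 ± 0.33 SE, edgeR adjusted p = 0.00491), and no other ligand gene was called in these 4 comparisons by edgeR. The list medians for genotype were 0.026 in the NK1.1- pool and -0.058 in the NK1.1+ pool.

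Of 46 symbols listed for receptor signalling and desensitization, 40 genes were tested within each pool and each genotype. In NK1.1- cells 2 were higher and 2 lower in miR-155KI mice, beside 1.93% and 1.50% of all genes. The lower ones were *Rgs1*, a brake on G protein signalling (log2 fold change -0.99 ± 0.19 SE, edgeR adjusted p = 0.0181), and *Rgs3* (-0.41 ± 0.10 SE, edgeR adjusted p = 0.0469). The higher ones were *Rgs10* (0.50 ± 0.11 SE, edgeR adjusted p = 0.0247) and the phospholipase gene *Plcb2* (0.45 ± 0.11 SE, edgeR adjusted p = 0.0490). In NK1.1+ cells 0 of 40 were called by edgeR and 7 had an unadjusted p under 0.05, again beside 11.8% of all genes. Between the pools 8 were higher and 2 lower in NK1.1+ cells of miR-155KI mice, beside 7.92% and 6.15% of all genes. In those of WT mice 11 were higher and 2 lower, beside 9.89% and 10.9% of all genes. *Rgs1* had the smallest p in both, at 476 ± 162 CPM in NK1.1+ against 65.1 ± 9.5 CPM in NK1.1- cells of miR-155KI mice, and 612 ± 60 CPM in NK1.1+ against 127 ± 33 CPM in NK1.1- cells of WT mice (SD, n = 3 each). *Pik3r5*, a subunit of the G protein-coupled PI3-kinase, and *Prex1*, a Rac exchange factor, were higher in the NK1.1+ pool of both genotypes. The list medians were 0.099 in miR-155KI and 0.15 in WT cells for the pool difference, beside 0.031 and 0.0079 for all genes.

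The genes whose log2 CPM most resembled each receptor's over the 12 libraries were listed as a description, with Pearson's r among 9814 named genes. These libraries share the pool difference, so high values are common. *Cxcr3* was closest to *Ctsd* (r = 0.986), *Cyth4* (0.977) and *Tbx21* (0.977). *Cxcr4* was closest to *Atg101* (0.969), *Map2k3* (0.958) and *Tsix* (0.953), the antisense partner of *Xist*. *Cxcr5* was closest to *Adamtsl3* (0.986), *Nipal1* (0.982) and *Arhgap24* (0.972), and *Cxcr6* to *Id2* (0.952), *Rb1* (0.948) and *Cdc42* (0.939). For *Ccr2* these were *Psmd14* (0.949), *Rbbp7* (0.945) and *Caprin1* (0.941), for *Ccr4* *Hc* (0.981), *Ddr1* (0.978) and *Lmo4* (0.978), and for *Ccr8* *Ppp1r3b* (0.983), *Klf3* (0.975) and *Neurl3* (0.973). *Ccr9* was closest to *Pdlim1* (0.992), *Pdlim4* (0.992) and *Slc22a3* (0.991), and *Ccr10* to *Phgdh* (0.973), *Plxdc1* (0.969) and *Cntnap1* (0.969). Among the receptors themselves *Ccr9* and *Ccr10* were each other's nearest (0.949), as were *Cxcr3* and *Ccr8* (0.898).

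*Cntnap1* overlaps *Ccr10* on the opposite strand without sharing exon bases, and it had 12.2 to 17.5 CPM in miR-155KI NK1.1+, 6.86 to 9.19 in WT NK1.1+, 57.2 to 89.4 in miR-155KI NK1.1- and 34.9 to 51.5 in WT NK1.1- cells. *Ccr9* lies across *Lztfl1* on the opposite strand, which was also lower in the NK1.1+ pools of both genotypes (log2 fold changes -1.76 ± 0.18 SE in miR-155KI and -1.41 ± 0.25 SE in WT cells). Of the *Ccr9* exon bases, 18.8% are shared with the opposite-strand transcript AC165425.1, and 3.3% of those of *Cxcr5* with *Bcl9l*. The sources do not say whether counting used strand, so reads of *Ccr9*, *Ccr10* and *Cxcr5* and of these neighbours could not be fully separated.

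Promoters of 4 genes that differed between the pools are shown because they moved together in pairs, *Cxcr3* and *Ccr8* higher in NK1.1+ cells and *Ccr4* and *Ccr9* lower. The windows, from RefSeq on GRCm38.p6, run from 250 bases before to 50 after the start, on the strand of the gene. Capitals mark 3 motifs searched on both strands: the T-box element GTGTGA, the GATA motif AGATAA and the ETS core AGGAAG.
*Cxcr3* (chrX:101734098-101734397, minus strand): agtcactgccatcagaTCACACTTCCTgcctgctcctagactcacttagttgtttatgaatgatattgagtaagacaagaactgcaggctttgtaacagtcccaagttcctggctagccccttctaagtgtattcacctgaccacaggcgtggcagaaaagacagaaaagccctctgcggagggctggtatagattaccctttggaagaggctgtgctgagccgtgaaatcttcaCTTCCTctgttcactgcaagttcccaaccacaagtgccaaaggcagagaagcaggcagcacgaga
*Ccr8* (chr9:120091883-120092182, plus strand): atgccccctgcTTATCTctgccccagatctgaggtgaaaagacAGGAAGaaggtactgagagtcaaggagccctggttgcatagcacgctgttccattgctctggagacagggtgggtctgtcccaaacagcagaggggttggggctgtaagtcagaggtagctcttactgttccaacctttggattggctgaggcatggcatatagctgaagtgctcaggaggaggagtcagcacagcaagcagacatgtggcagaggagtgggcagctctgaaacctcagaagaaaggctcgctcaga
*Ccr4* (chr9:114496495-114496794, minus strand): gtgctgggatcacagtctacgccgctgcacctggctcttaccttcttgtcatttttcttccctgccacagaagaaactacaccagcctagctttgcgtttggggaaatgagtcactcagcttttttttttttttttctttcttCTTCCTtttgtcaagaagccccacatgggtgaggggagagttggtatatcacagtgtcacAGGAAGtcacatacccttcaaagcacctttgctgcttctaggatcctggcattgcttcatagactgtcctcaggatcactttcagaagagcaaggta
*Ccr9* (chr9:123766961-123767260, plus strand): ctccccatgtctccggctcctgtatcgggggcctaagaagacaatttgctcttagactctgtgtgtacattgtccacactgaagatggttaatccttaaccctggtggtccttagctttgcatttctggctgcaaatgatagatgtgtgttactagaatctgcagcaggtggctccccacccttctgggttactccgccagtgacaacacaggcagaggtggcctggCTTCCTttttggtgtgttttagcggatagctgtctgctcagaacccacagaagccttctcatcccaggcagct
The *Cxcr3* window held 1 T-box match, which overlaps an ETS match, and 2 ETS matches in all. The *Ccr8* window held 1 GATA and 1 ETS match, that of *Ccr4* 2 ETS matches and that of *Ccr9* 1. Of 32851 promoter windows of this length, 14.5% hold the T-box element, 11.2% the GATA motif and 35.4% the ETS core. Windows were found for 7 of the 9 genes. That of *Ccr2* held 1 GATA match, and those of *Cxcr4* and *Cxcr6* held none of the 3 motifs.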

How the data were processed

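The authors deposited 1 table of raw counts, in whole numbers for each gene, and 1 of normalized signal named CPM, in which each value is a count times 1 factor per library. The submitters' processing notes name bcl2fastq 2.17.1.14 and GRCm38 (mm10), and the aligner and counting program are not given in the sources used here. A spreadsheet had turned 27 symbols into dates (0.249% of counts). Each comparison was fitted on its own 6 libraries, and the interaction on all 12, in R 4.3.3 with edgeR 4.0.16 (TMM, default filter on low counts, robust quasi-likelihood test). Benjamini-Hochberg adjustment covered all genes of a fit, with a threshold of 0.05. Alternatives used DESeq2 1.42.0, limma 3.58.1 (voom, and log2(CPM + 1) of the deposited signal), RLE factors, other filters, all libraries, the replicate number, sex-linked RNA and libraries left out. Tables were made in Python 3.11.15. On simulated counts the test recovered 75.7% of genes changed 2-fold and 26.3% of those changed 1.5-fold in the NK1.1- genotype comparison, and 41.3% and 5.36% in NK1.1+ cells. The members and lists were chosen with earlier results of these data known. Named genes were the 9 receptors, up to 4 genes per list and comparison by smallest p, and the 3 genes most like each receptor with 5 CPM or more on average in a group and no predicted name, and 1 gene selected this way is not reported here. *Lztfl1* and *Bcl9l* were named as overlapping genes, after their values were seen.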

Additional observations from a re-analysis of the deposited data

How the results depend on the processing

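Of 738 log2 fold changes of the 9 receptors under other settings, 663 kept their direction and side of the threshold, 25 passed it newly, 17 lost it and 33 changed sign. In the genotype comparison of NK1.1- cells 3 receptors were called. Without a filter on low counts there were 5, in a fit of all 12 libraries 1 (*Cxcr5*), and with the ratio of Y-linked to *Xist* RNA as a covariate 1 (*Cxcr3*). With that covariate 60 genes were higher and 55 lower of 13304 tested, against 257 and 200 in the main fit, so calls fell over all genes too. For the other settings of this section the share of all genes is not given. The counts of receptors called therefore do not set the receptors apart from other genes. The cause of these shifts was not tested. With WT replicate 1 as the only control 2 were called, *Cxcr3* and *Ccr2*, and with 1 library left out 2 to 4. The log2 fold change of *Ccr10* was 0.24 with the covariate and 0.31 with WT replicate 1 alone, against -0.16, and that of *Cxcr6* -0.28 to 0.013 with 1 library left out. In NK1.1+ cells no setting called a receptor. With the covariate and with WT replicate 1 alone, the values were -0.18 and -0.31 for *Cxcr3* and -0.27 and -0.41 for *Cxcr6*. *Ccr8* was 0.014 with WT replicate 1 alone, and *Ccr2* 0.023 by limma on the deposited CPM. With 1 library left out the ranges were -0.11 to 0.35 (*Cxcr3*), -0.022 to 0.29 (*Cxcr5*), -0.076 to 0.45 (*Cxcr6*), -0.26 to 0.16 (*Ccr2*) and -0.025 to 0.86 (*Ccr9*). Between the pools 6 to 8 receptors were called under each setting in either genotype. *Cxcr4* in WT cells was 0.013 in the fit of all libraries, 0.074 with the covariate and -0.36 to 0.27 with 1 library left out, and in miR-155KI cells -0.055 to 0.36. For the interaction 0 receptors were called by edgeR, 2 by DESeq2, 3 without a filter and 0 to 1 with 1 library left out. There *Ccr9* was -0.033 by limma-voom, -0.019 by limma on the deposited CPM and -0.43 to 0.45 with 1 library left out, and *Cxcr4* -0.11 to 0.51.

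The main tests took the replicate numbers as no more than shared numbers. Correlations of same-numbered libraries, as deviations from group means, were 0.293, 0.243 and 0.0988 between the WT pools. Between the miR-155KI pools they were 0.117, 0.0689 and 0.0611, so not all passed 0.1. The WT value of 0.0988 lay just under that limit. Both WT pools had high *Xist* in replicates 2 and 3 and low *Xist* in replicate 1. Whether equal WT numbers mark true pairs was not tested. The main tests used no such pairs, and their calls between the WT pools and for the interaction differ from those with a block. With the replicate block 3 receptors were called for genotype in NK1.1- cells, 0 in NK1.1+ cells, 8 between the pools in each genotype and 1 (*Cxcr3*) for the interaction. The block gave 0.0014 for *Cxcr4* between the WT pools. With 3 libraries a group, changes under 2-fold were often missed on simulated counts. Recovery of 2-fold changes was 41.3% for genotype in NK1.1+ cells, 42.5% between the miR-155KI pools and 21.6% for the interaction. For the interaction 75.4% of 4-fold changes were recovered. Counts of 38 reads at the lowest limit *Cxcr5* in NK1.1+ cells.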
